A study of Mus musculus with 6 samples.

Results

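Respiratory complex I, the NADH dehydrogenase of mitochondria, was followed here through the RNA of 35 of its nuclear-encoded subunits. The members were given as a list of gene symbols, and all 35 were measured, out of 23152 genes on the array. The tissue was the soleus, a slow hindlimb muscle, of 18-week-old male mice after an overnight fast of 14 h. The control group (WT) consisted of 3 Gna13 flox/flox mice without Cre, and the knockout group (MKO) of 3 Ckmm-Cre; Gna13 flox/flox mice, each on 1 array. Ckmm-Cre acts from the muscle creatine kinase promoter in muscle fibres, so other cells of the muscle keep Gna13, which encodes the G protein subunit Gα13. All 6 mice carried the floxed alleles and only the MKO mice carried Cre, so an effect of Cre and an effect of losing Gna13 cannot be told apart. The labels call the replicates biological, and each is treated as 1 mouse.

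Complex I takes electrons from NADH, passes them along a flavin and a chain of iron-sulfur clusters to ubiquinone, and pumps protons across the inner mitochondrial membrane. The complex has the shape of an L, with a matrix arm that holds the redox chemistry and a membrane arm that holds the proton pumps. Its subunits are encoded partly in mitochondrial DNA and mostly in the nucleus, and a core set inherited from bacteria is surrounded by accessory subunits needed for assembly and stability. Slow muscle such as the soleus is rich in mitochondria and relies on this chain for sustained work.

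No difference in the RNA of complex I subunits passed the test between the groups. With limma, 0 of the 35 members passed an adjusted p of 0.05, with 0 of all 23152 genes (0%) doing so, and the lowest adjusted p of a member was 0.99972. At an unadjusted p under 0.05 the count of members was also 0, where 4.33% of all genes fell. The log2 fold change, MKO minus WT, lay between −0.19 (Ndufa7) and 0.15 (Ndufs3) with the mean of probe sets. It lay between −0.42 (Ndufa5) and 0.22 (Ndufa2) with the median of their levels on each array. With bright probe sets only, those above the median level, it lay between −0.17 (Ndufb3) and 0.26 (Ndufs5). In all, 20 members were on the higher side and 15 on the lower side, that is 57.1% higher, against 46.6% of all genes. All 35 lay above the median level of genes, where 4448 of 11576 genes were on the higher side. The median of the members was 0.02 and their mean −0.01. The median was −0.01 over all genes and −0.04 over those above the median level. The balance of signs was not stable: the count on the higher side was 12 without WT replicate 3, 15 without MKO replicate 3, 25 without WT replicate 2, 14 with the median of probe sets, and 17 both with array weights and with bright probe sets only.

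How large a difference the data allow depended on how probe sets were summarised. With their mean, the limma 95% interval of the log2 fold change lay wholly within 0.5 of 0, a 1.41-fold difference, for 31 of the 35 members, and for 55.4% of all genes. With the median of probe sets, 21 members met this limit, and Ndufa5 (−0.42), Ndufa2 (0.22) and Ndufc1 (−0.26) then lay outside their intervals from the mean. That median is one of levels and follows the probe sets of middle level. The median of the log2 fold changes of single probe sets was 0.14 for Ndufa5, −0.06 for Ndufa2 and 0.08 for Ndufc1. With an array left out, 28 to 32 members met it. The narrowest interval from the mean was that of Ndufb9, a subunit of the distal membrane arm, from −0.11 to 0.14. The 4 members with wider intervals were Ndufa7 (−0.65 to 0.26), Ndufb11 (−0.62 to 0.49), Ndufc2 (−0.60 to 0.28) and Ndufs6 (−0.56 to 0.20). The median standard error was 0.12 for the members and 0.17 for all genes.

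**Figure D1:**
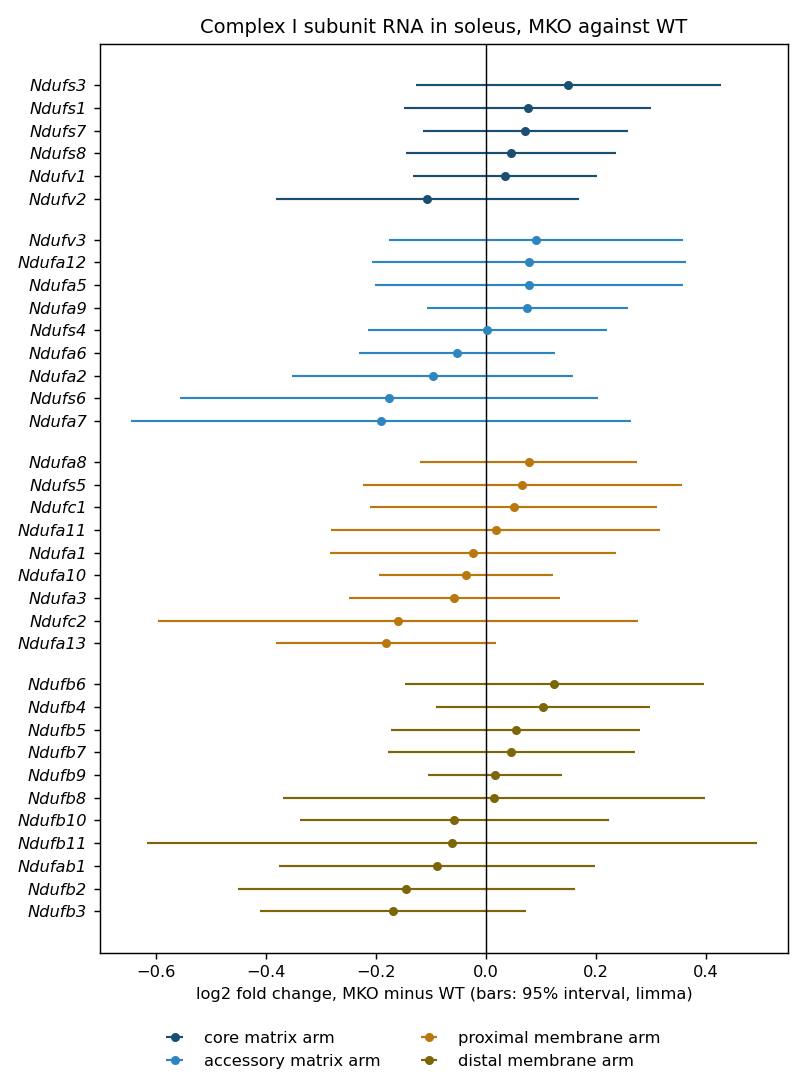
Log2 fold change of each of the 35 subunit genes, MKO minus WT (points), with the limma 95% interval (bars, 3 mice per group), grouped by arm of the complex. Every interval includes 0, and the points lie between −0.19 and 0.15.

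The genotype was checked with Gna13 itself, whose array annotation gives 7 probe sets, 2 lower and 5 higher in MKO. The one with the lowest fold change, probe set 17257825, named after its values were seen, stood at 5.48, 6.23 and 6.16 in WT replicates 1 to 3 and at 3.43, 4.25 and 4.33 in the MKO replicates, so the groups did not overlap. Its log2 fold change was −1.95 (SE 0.40, limma adjusted p = 0.977 over all probe sets). Probe sets 17257824, 17257828 and 17257829 were on the higher side in MKO, by 0.65, 0.51 and 0.67, with groups that did not overlap either. The exons behind these probe sets are not named in the annotation used, so none can be placed inside or outside the deleted part. Array medians ran from 4.87 to 4.95. The labelled tissue showed its markers: the mean of 12 soleus fibre genes lay between 10.27 and 10.33 in WT and between 10.27 and 10.32 in MKO. The mean of 8 fast fibre genes was 8.54 on the lowest MKO array, replicate 1, and 9.70 to 10.20 in WT. In whole muscle, fewer cells of a type and less RNA per cell cannot be told apart.

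The core subunits of the matrix arm carry the flavin and the iron-sulfur clusters. Of the 6 measured, 5 were on the higher side in MKO, with a median log2 fold change of 0.06, none at an unadjusted p under 0.05. Ndufs3, a subunit close to the site where ubiquinone is reduced, stood at 6.52, 6.98 and 6.75 in WT and at 6.87, 6.92 and 6.92 in MKO (replicates 1 to 3). WT replicate 2 was the highest of all arrays and WT replicate 1 the lowest, and the MKO arrays lay between them. The difference was 0.15 (SE 0.13), and it was −0.02 with the median of levels in place of the mean of its 14 probe sets. Of the 14, 11 were on the higher side, and the median of their log2 fold changes was 0.09. Ndufs1, the largest subunit and holder of several iron-sulfur clusters, has the most probe sets of the members, 24. It stood at 9.15, 9.03 and 8.98 in WT and at 8.94, 9.11 and 9.34 in MKO, with the lowest and the highest value both in MKO, and differed by 0.08 (SE 0.10). Ndufv1, which binds NADH and the flavin, differed by 0.04 (SE 0.08), and its neighbour Ndufv2 by −0.11 (SE 0.13). Without MKO replicate 3, Ndufv2 stood at −0.27 (SE 0.09, limma adjusted p = 0.656), 1 of the 2 members then at an unadjusted p under 0.05, with 6.74% of all genes there. Ndufs7, which holds the last iron-sulfur cluster before ubiquinone, and Ndufs8, which holds the clusters ahead of it, differed by 0.07 (SE 0.09) and 0.05 (SE 0.09).

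The accessory subunits of the matrix arm surround this core. Of 9, 5 were on the higher side and 4 on the lower, with a median of 0.00. Ndufa7 stood at 5.32, 5.84 and 4.96 in WT and at 4.93, 5.17 and 5.45 in MKO, and its difference of −0.19 (SE 0.21) was smaller than the range within WT. Ndufs6, a zinc-binding subunit added late in assembly, stood at 6.60, 6.18 and 6.42 in WT and at 5.87, 6.59 and 6.21 in MKO. MKO replicate 1 was low and MKO replicate 2 lay near the top of WT. Its difference was −0.18 (SE 0.18), and 0.00 without MKO replicate 1, with each of its 5 probe sets on the lower side. Ndufa9, a nucleotide-binding subunit near the joint of the arms, stood at 9.62, 9.65 and 9.51 in WT and at 9.52, 9.73 and 9.76 in MKO, a difference of 0.07 (SE 0.08). Ndufa6, a member of the LYR family that holds an acyl carrier protein, differed by −0.05 (SE 0.08). Ndufs4, whose loss in mice is a model of Leigh syndrome, differed by 0.00 (SE 0.10). The remaining 4, Ndufv3, Ndufa2, Ndufa5 and Ndufa12, lay between −0.10 and 0.09.

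The proximal membrane arm joins the matrix arm to the pumps. Of its 9 members, 4 were on the higher side and 5 on the lower, with a median of −0.02. Ndufa13, also known as GRIM-19 for its role in cell death, had the smallest p of all members. It stood at 8.51, 8.55 and 8.42 in WT and at 8.25, 8.25 and 8.44 in MKO. MKO replicates 1 and 2 lay below all WT arrays, while MKO replicate 3 lay above WT replicate 3. The difference was −0.18 (SE 0.09, 95% interval −0.38 to 0.02). Of its 7 probe sets, the dim probe set 17509906 stood at −1.35 (SE 0.45), and with probe sets above the median level only the difference of the gene was 0.01. Ndufa8, a cysteine-rich subunit on the intermembrane side, stood at 8.43, 8.47 and 8.26 in WT and at 8.42, 8.50 and 8.47 in MKO, a difference of 0.08 (SE 0.09). Ndufs5, another cysteine-rich subunit, was the 1 member of 35 (2.86%) whose groups did not overlap, where 9.25% of all genes did not. It stood at 5.03, 4.99 and 4.99 in WT and at 5.08, 5.06 and 5.07 in MKO, a difference of 0.07 (SE 0.13), and is named here after its values were seen. With probe sets above the median level only, its difference was 0.26, the highest of the members. Of its 4 probe sets, 3 were on the higher side. Among them, 17325720 stood at 0.27 (SE 0.17) and 17429809 at 0.25 (SE 0.25), while the dim 17429808 stood at −0.28 (SE 0.37). Ndufa10, which resembles nucleoside kinases, differed by −0.04 (SE 0.07), and Ndufc2 by −0.16 (SE 0.20), with MKO replicate 1 at 7.42 and the other arrays between 7.89 and 8.48. Of the 5 probe sets of Ndufc2, 3 were lower and 2 higher. The dim 17480347 (−0.63, SE 0.97) stood at 1.58 on MKO replicate 1 and between 3.81 and 5.77 on the others. The 2 higher ones, 17480345 and 17480346, were bright and differed by 0.27 (SE 0.12) and 0.06 (SE 0.09). The other 4, Ndufa1, Ndufa3, Ndufa11 and Ndufc1, lay between −0.06 and 0.05.

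The distal membrane arm holds the last proton pumps and most Ndufb subunits. Of 11 members, 6 were on the higher side and 5 on the lower, with a median of 0.01. Ndufb3 stood at 8.13, 8.27 and 7.98 in WT and at 8.04, 7.78 and 8.06 in MKO, with MKO replicate 2 the lowest and the groups overlapping, a difference of −0.17 (SE 0.11). Of its 4 probe sets, 17213184 stood at −0.68 (SE 0.52) and the others between −0.01 and 0.02. Ndufb2 stood at 6.03, 6.11 and 5.84 in WT and at 5.92, 5.63 and 6.0 in MKO, a difference of −0.14 (SE 0.14), with 7 of 8 probe sets on the lower side. Its brighter probe sets, 17457542 and 17457545, each differed by 0.00 (SE 0.12 and 0.13), and both count among the 7. Probe set 17457544, bright with a WT mean of 10.54, is annotated to both Ndufb2 and Adck2 and is not in the gene value. It was on the higher side, by 0.19 (SE 0.10). Ndufb6 stood at 6.92, 7.15 and 6.75 in WT and at 6.98, 7.02 and 7.19 in MKO, a difference of 0.12 (SE 0.13).

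Ndufb4 rests on 1 probe set of its own and stood at 10.04, 10.04 and 9.97 in WT and at 9.92, 10.28 and 10.17 in MKO. MKO replicate 1 was the lowest array and the other MKO arrays were the highest, and the difference was 0.10 (SE 0.09). Without MKO replicate 1 it was 0.21 (SE 0.07, limma adjusted p = 0.826), the 1 member then at an unadjusted p under 0.05, with 5.73% of all genes there. A further 5 probe sets are annotated to both Ndufb4 and the gene model Gm3244, and they differed by −0.60 to 0.08. Ndufab1, the mitochondrial acyl carrier protein that also serves fatty acid synthesis and sits in both arms, differed by −0.09 (SE 0.13). Ndufb8 ranged from 6.36 to 7.13 in WT and from 6.78 to 6.95 in MKO, a difference of 0.01 (SE 0.18). Ndufb11, with 2 probe sets, was low on WT replicate 3 (5.46) and MKO replicate 1 (5.51) and lay between 6.19 and 6.41 on the others. Ndufb5, Ndufb7, Ndufb9 and Ndufb10 lay between −0.06 and 0.05. Subunit genes with near-identical copies elsewhere in the genome may share signal with them, and this was not tested.

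**Figure D2:**
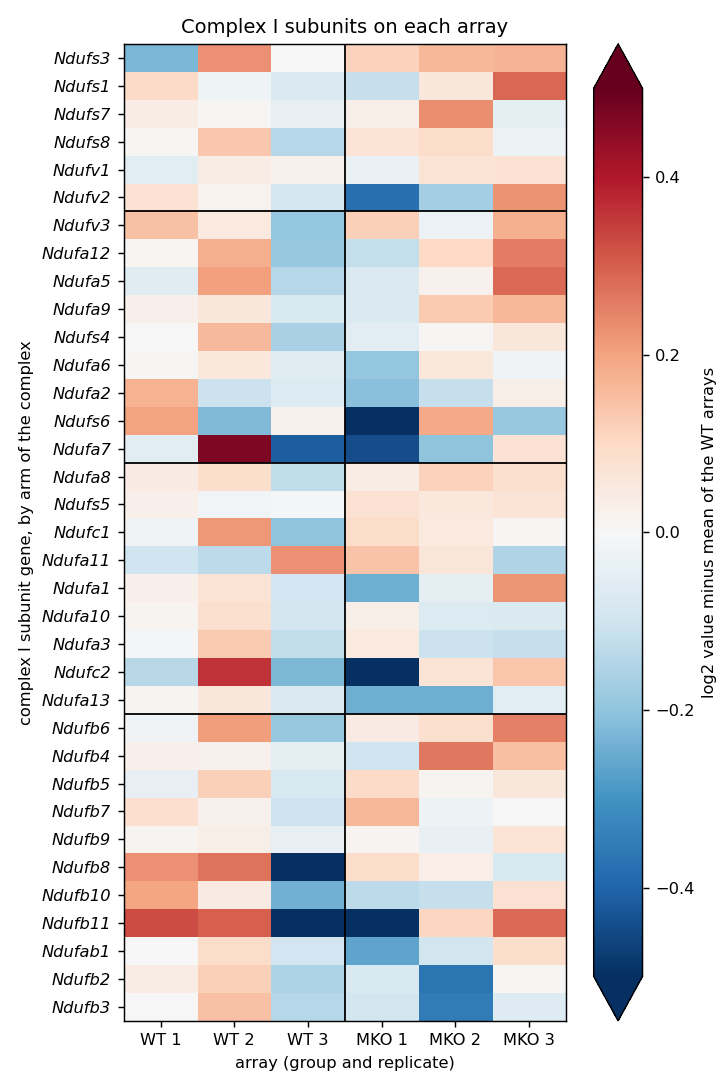
Each row is a subunit gene and each column an array, and colour gives the log2 value minus the mean of the 3 WT arrays, cut at 0.5 on either side; black lines part the groups and the arms. WT replicate 3 and MKO replicate 1 show the most blue cells, with 31 and 20 of the 35 members below the WT mean.

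The larger pattern among the members ran between single arrays and not between the groups. Each mouse has its own array, so a difference between mice and one between arrays cannot be told apart. The mean of the 35 members, relative to the mean of WT, was 0.03, 0.10 and −0.13 in WT replicates 1 to 3 and −0.10, 0.00 and 0.07 in MKO replicates 1 to 3. The WT arrays spanned the MKO arrays at both ends. The SD of these means was 0.12 in WT and 0.08 in MKO (n = 3 each), against a difference between the groups of −0.01. WT replicate 3 was the lowest WT array for 29 of the 35 members, and for 37.2% of all genes. MKO replicate 1 was the lowest MKO array for 20 members, and for 37.9% of all genes. After quantile normalization of the gene values the means were 0.01, 0.07 and −0.08 in WT and 0.03, 0.04 and 0.03 in MKO, so that the spread among MKO arrays narrowed and WT replicate 3 remained the lowest. In markers of fibroblasts, endothelium and tenocytes these arrays were each the lowest of their group as well. For 7 fibroblast markers WT replicate 3 stood at −0.19 and MKO replicate 1 at −0.55, with −0.19 to 0.15 on the other arrays. For 7 endothelial markers they stood at −0.18 and −0.34, with −0.18 to 0.17 on the others, and for 6 tenocyte markers at −0.28 and −0.20, with −0.17 to 0.18 on the others. WT replicate 3 and MKO replicate 1 were also the lowest of their groups for macrophage markers (−0.18 and −0.30) and complex I assembly factors (−0.13 and −0.12). The same held for supercomplex factors (−0.12 and −0.03), NADH shuttle genes (−0.02 and −0.03) and ubiquinone synthesis (−0.02 and −0.06). Other lists differed from this pattern on WT replicate 3 and MKO replicate 1. The 12 soleus fibre genes stood at 0.03 and −0.01 there, the 8 fast fibre genes at 0.22, the highest of WT, and −1.44, and the 6 adipocyte markers at 0.19, again the highest of WT, and −0.26. The part of these lists in the spread of complex I RNA was not tested.

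Between the groups, 6 of 7 fibroblast and 5 of 6 tenocyte markers were on the lower side in MKO (medians −0.31 and −0.11). So were 6 of 6 macrophage and 7 of 7 endothelial markers (medians −0.13 and −0.10). Among all genes, 46.6% were on the higher side, and 4448 of the 11576 genes above the median level were. Of 4 Schwann cell and nerve markers measured, 3 were higher (median 0.18, and 0.10 to 0.22 with an array left out). Their array means, −0.04 to 0.05 in WT and 0.08 to 0.20 in MKO, did not overlap. The part of these lists in the results on complex I was not tested. Some of these counts rest on single arrays. Without WT replicate 1, 3 of 6 macrophage markers (median −0.01) and 3 of 6 tenocyte markers (median −0.01) were lower. Without WT replicate 2, 4 of 7 endothelial markers were lower (median −0.04). Of the fibroblast markers, 5 to 7 of 7 stayed lower with any array left out. Without MKO replicate 1 the medians were −0.12 for fibroblast and −0.04 for endothelial markers. Over all 6 arrays left out in turn, the medians ran from −0.46 to −0.12 for fibroblast, from −0.23 to −0.01 for tenocyte, from −0.23 to −0.04 for endothelial and from −0.24 to −0.01 for macrophage markers. Fast fibre genes were lower for 7 of 8, with a median of −0.15, and for 2 of 8 without MKO replicate 1 (median 0.03). Myh4, the myosin of the fastest fibres, named after its values were seen, stood at 10.89, 9.48 and 11.72 in WT and at 5.11, 7.94 and 11.51 in MKO, a difference of −2.51 (SE 1.11, limma adjusted p = 0.99972) and the lowest log2 fold change of all genes. The array mean of this list was −1.44, −0.37 and 0.18 in MKO, against −0.28 to 0.22 in WT, and its part in the complex I values was not tested. Actn3 and Pvalb, also named after their values were seen, differed by −0.90 (SE 0.64) and −0.64 (SE 0.45). They stood at 6.61 and 5.64 on MKO replicate 1. Apart from these and Myh4, the fast fibre genes differed by −0.22 to 0.03. Cldn5, an endothelial junction protein, differed by −0.73 (SE 0.15), and Cd68, a macrophage lysosomal protein, by −0.82 (SE 0.26), neither past the adjusted threshold with limma. Ucp1, which defines brown fat, another tissue rich in mitochondria, stood between 2.97 and 3.35 in WT and between 2.89 and 3.48 in MKO. Of the 6 brown fat markers, 4 were on the higher side (median 0.01). Cox8b, named after its values were seen, stood at 9.53 to 9.55 in WT and at 9.60 to 9.71 in MKO (0.12, SE 0.07). Its groups did not overlap, where 9.25% of all genes did not. Ucp1 and Elovl3, the latter also named after its values were seen, lay below the median level of genes. Cox8b is therefore not read here as a sign of brown fat. Cidea differed by 0.11 (SE 0.12).

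Single probe sets were then examined, since a gene mean can hide probe sets that differ in opposite directions. The 35 members have 276 probe sets, from 1 to 24 per gene, and 32 members had probe sets on both sides of 0. Of the 276, 0 passed an adjusted p of 0.05 with limma, as did 0 of all 269751 (0%), and 9 (3.26%) had an unadjusted p under 0.05, against 5.0% of all probe sets. The groups did not overlap in 23 (8.33%), against 9.86% of all. In direction, 145 were higher and 131 lower in MKO, against 48.7% higher among all probe sets.

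Of the 9, 6 were on the higher side and 3 on the lower, and the genes they belong to are named after their values were seen. The 4 widest differences came from probe sets with a mean value under 6. Ndufs1 probe set 17223696 stood at 2.61, 2.96 and 2.15 in WT and at 3.44, 4.11 and 5.15 in MKO, a difference of 1.66 (SE 0.53). Ndufs1 probe set 17223709 stood at 1.21 (SE 0.43), while the other 22 probe sets of the gene lay between −0.69 and 0.16. Ndufs3 probe set 17388081 rested on WT values of 2.76, 3.09 and 3.15 against 4.58, 4.20 and 3.99 in MKO, a difference of 1.26 (SE 0.40). All 3 lay on the higher side with groups that did not overlap, and none had an adjusted p under 0.05 (limma).

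Among bright probe sets, Ndufb8 17365139 stood at 10.24, 10.37 and 10.29 in WT and between 9.91 and 10.05 in MKO, a difference of −0.31 (SE 0.09). Ndufv1 17361068 stood at 9.71, 9.85 and 9.78 in WT and at 10.14, 10.08 and 10.03 in MKO, a difference of 0.30 (SE 0.09). Both separated the groups, in opposite directions and in genes whose means differed by 0.01 and 0.04. The others were Ndufc1 17405136 (−0.71, SE 0.27), Ndufa3 17473175 (0.22, SE 0.09), Ndufb7 17502950 (0.41, SE 0.18) and the Ndufa13 probe set described above.

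The precision of a probe set followed its brightness. The 124 probe sets with a mean value of 9 or more, a limit chosen after seeing the data, came from 31 members and had a median standard error of 0.10, against 0.33 for the 152 below it. Their log2 fold changes lay between −0.46 and 0.30, with a median of 0.02, and 72 were on the higher side. Below the limit the range was −1.35 to 1.66 with a median of −0.01. The array means of the brighter probe sets, relative to WT, were 0.03, 0.04 and −0.07 in WT and −0.05, 0.03 and 0.07 in MKO. The order of the lowest arrays was thus the same as for the gene means, with a smaller spread.

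**Figure D3:**
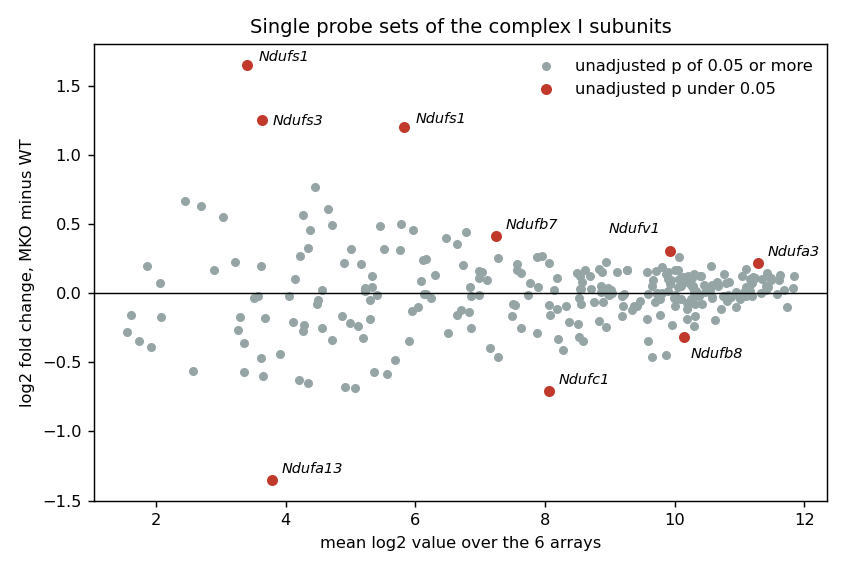
Each of the 276 probe sets of the subunit genes, by its mean log2 value over the 6 arrays (horizontal) and its log2 fold change, MKO minus WT (vertical); red marks the 9 at an unadjusted p under 0.05 (limma). The spread around 0 narrows to the right, where the 124 probe sets at 9 or more lie between −0.46 and 0.30.

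The subunits encoded in mitochondrial DNA complete the membrane arm and form its proton pumps. Mitochondrial genes are transcribed as long shared precursors, so these are not independent measurements, and each rests on 1 probe set. All 7, ND1 to ND6 and ND4L, were on the lower side in MKO in the deposited values, with a median of −0.06 and a range of −0.09 to −0.02, but 1 was on the higher side after quantile normalization (median 0.00) and 2 after median centring (median −0.03). None had an unadjusted p under 0.05. ND4L stood at 12.57, 12.58 and 12.49 in WT and at 12.40, 12.50 and 12.56 in MKO, a difference of −0.06 (SE 0.05). ND1 stood at 12.70, 12.77 and 12.65 in WT and at 12.59, 12.61 and 12.76 in MKO (−0.06, SE 0.06), and ND2 differed by −0.06 (SE 0.07). In each of these the groups overlapped, with MKO replicate 1 low and MKO replicate 3 within WT. The array means of the 7 genes were 0.02, 0.05 and −0.07 in WT and −0.13, −0.08 and 0.07 in MKO, with WT replicate 3 the lowest of its group and MKO replicate 1 of its own, as for the nuclear members.

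Building complex I needs assembly factors that are absent from the finished enzyme. Of 20 listed, 19 were measured, 11 on the higher and 8 on the lower side, with a median of 0.01 and none at an unadjusted p under 0.05. The 3 with the smallest p were Atp5sl, now named Dmac2 (0.29, SE 0.16), Lyrm2 (−0.26, SE 0.17) and Ndufaf4 (0.17, SE 0.12). Atp5sl stood at 5.66, 5.78 and 5.30 in WT and at 5.63, 5.95 and 6.03 in MKO, with overlap.

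Complex I joins complexes III and IV in supercomplexes. All 5 genes of that list were measured, 3 on the higher side, with a median of 0.04, led by Ndufa4, once counted as a complex I subunit and now placed in complex IV (0.07, SE 0.07), Cox7a2l (0.08, SE 0.12) and Higd2a (0.04, SE 0.12). Of 16 genes that deliver reducing equivalents through shuttles or pass electrons to ubiquinone by other routes, 9 were on the higher side, with a median of 0.02. Mdh2, the malate dehydrogenase of mitochondria, stood at 10.42, 10.42 and 10.41 in WT and at 10.61, 10.48 and 10.48 in MKO (0.10, SE 0.07), and was the 1 gene of this list whose groups did not overlap (9.25% of all genes did not). Etfb and Etfa, the subunits of the electron transfer flavoprotein of fatty acid oxidation, differed by 0.13 (SE 0.09) and 0.12 (SE 0.09). Of 13 genes of ubiquinone synthesis, 6 were on the higher side, with a median of −0.02. Pdss2, a subunit of the enzyme that makes the side chain, differed by −0.27 (SE 0.13), Coq2, which attaches that chain, by 0.37 (SE 0.20) and Coq10b, the 1 gene of this list whose groups did not overlap, by −0.18 (SE 0.11). Of 15 nuclear regulators of respiratory genes, 6 were on the higher side, with a median of 0.00. Sirt3, a mitochondrial deacetylase, differed by 0.20 (SE 0.15), Polrmt, the mitochondrial RNA polymerase, by 0.18 (SE 0.12), and the nuclear receptor gene Esrrg, the 1 of its list whose groups did not overlap, by 0.18 (SE 0.12). None of the genes in these 4 lists had an unadjusted p under 0.05 with limma, where 4.33% of all genes did.

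**Figure D4:**
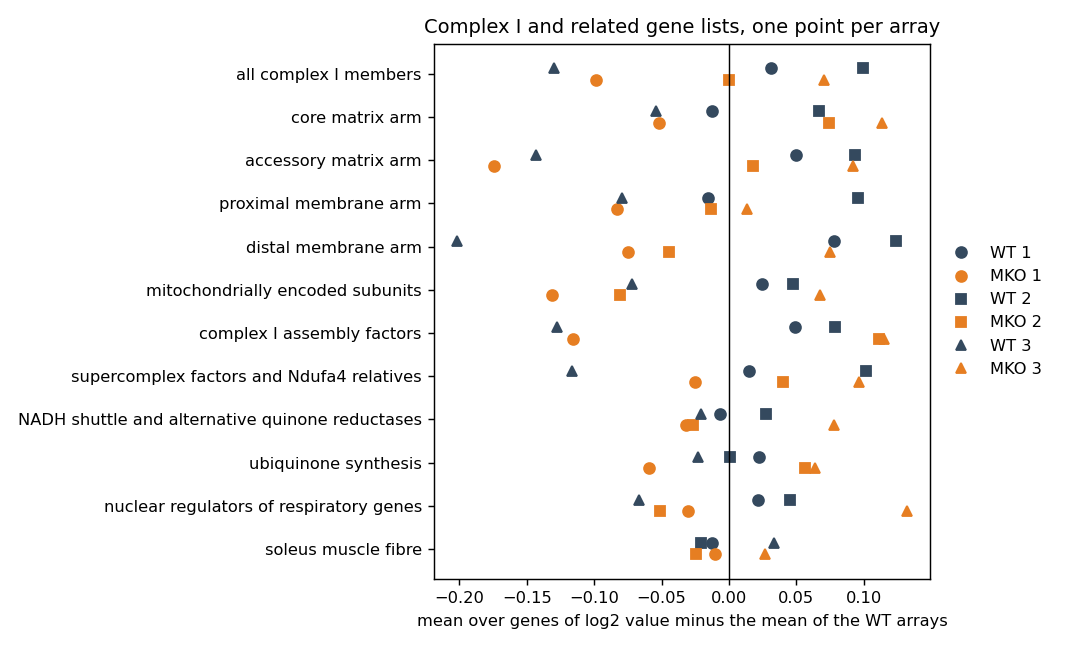
Mean over the genes of each list of the log2 value minus the mean of the WT arrays, 1 point per array (dark, WT; orange, MKO; the shape gives the replicate number, which does not pair the mice). WT and MKO arrays overlap in every list shown, and the complex I means run from −0.13 to 0.10.

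Sequence around the start sites was examined as a description of the members. Whether it bears on their variation between arrays was not tested. The RefSeq promoter table of assembly GRCm38.p6 held 34 windows for 32 of the 35 members, each from 250 bases before to 50 bases after a start site. Nuclear respiratory factor 1 (NRF-1) is a known activator of respiratory chain genes. Its motif, written here as GCGCA, then any base, then GCGC, and searched on both strands, lay in 8 of the 34 windows (23.5%), in 7 genes, and in 4.6% of all 32851 windows. The motif CCGGAAG of GABPA and other ETS factors lay in 4 (11.8%, against 8.86% of all), and TATAAA in 5 (14.7%, against 13.6%). The estrogen-related receptor motif TCAAGGTCA lay in 0, against 0.423% of all windows. A match is a description of letters and was not tied to binding.

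The 4 promoters below are shown as examples of members with an NRF-1 match before the start site, among them Ndufs6, Ndufb4 and Ndufa8, described above with their array values, and Ndufs5, the member whose groups did not overlap. Each is the stretch of 120 bases ending at the base before the start site, on the minus strand of GRCm38.p6, with the match in capitals. They lie at chr13:73328483-73328602 (Ndufs6), chr4:123718187-123718306 (Ndufs5), chr16:37654369-37654488 (Ndufb4) and chr2:36049339-36049458 (Ndufa8).
Ndufs6: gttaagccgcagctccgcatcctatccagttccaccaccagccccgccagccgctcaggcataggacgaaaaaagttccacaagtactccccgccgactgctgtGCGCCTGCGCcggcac
Ndufs5: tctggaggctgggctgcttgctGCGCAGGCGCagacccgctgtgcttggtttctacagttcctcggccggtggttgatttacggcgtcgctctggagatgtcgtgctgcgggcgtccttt
Ndufb4: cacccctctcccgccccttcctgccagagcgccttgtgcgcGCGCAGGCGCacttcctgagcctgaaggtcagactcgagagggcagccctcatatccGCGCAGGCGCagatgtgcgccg
Ndufa8: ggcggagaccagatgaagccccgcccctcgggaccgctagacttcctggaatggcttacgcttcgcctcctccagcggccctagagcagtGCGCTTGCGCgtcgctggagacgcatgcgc
Ndufb4 holds 2 matches in this stretch and the others 1 each. The 95% intervals of all 4 genes include 0, with values on the lower side for Ndufs6 and on the higher side for Ndufs5, Ndufb4 and Ndufa8.

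The motif AAGATGGCG of YY1, a factor that also acts at respiratory genes, lay in 5 of the 34 windows (14.7%), against 1.4% of all windows. The 5 matches are shown because they share strand and position: each reads in the direction of the gene and begins 23 to 36 bases from the start site, inside the transcript. The letters include ATG, and whether this is the start codon was not examined. Each stretch holds the match in capitals with 6 bases on either side. They lie at chr6:126849101-126849121 (Ndufa9), chr3:51408919-51408939 (Ndufc1), chr13:114388045-114388065 (Ndufs4), chr13:73328435-73328455 (Ndufs6) and, on the plus strand, chr10:80249467-80249487 (Ndufs7), the others being on the minus strand.
Ndufa9: tgggagAAGATGGCGgccgcc
Ndufc1: cggaacAAGATGGCGccgtcc
Ndufs4: tacaggAAGATGGCGgcggtc
Ndufs6: accggcAAGATGGCGgcggtg
Ndufs7: gaggccAAGATGGCGgcgctg
The 5 genes had log2 fold changes of 0.07 (Ndufa9), 0.05 (Ndufc1), 0.00 (Ndufs4), −0.18 (Ndufs6) and 0.07 (Ndufs7), with standard errors of 0.08 to 0.18.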

How the data were processed

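Per the labels and the submitters' processing notes, the authors summarised the arrays by RMA in Affymetrix Expression Console, and the deposited values are on a log2 scale. Software versions, genome build and annotation release are not named there. The labels speak of a gene-level export, but the table has 269751 rows, several per gene. Each row was therefore read as a probe set of part of a gene, which remains unsure and bears on every probe set value and gene mean. In the platform's annotation 233753 rows carry 1 gene symbol, 5106 several and 30892 none. A gene's value is the mean of its probe sets with exactly 1 symbol. The contrast MKO minus WT was estimated by lmFit and eBayes with a variance trend (limma 3.58.1, R 4.3.3). Tests are two-sided at 0.05 after Benjamini-Hochberg adjustment across all genes or all rows. With 3 mice per group an exact permutation test cannot give a p under 0.1, and precision rests on this small number of arrays. The local pooled error test that the authors name per the labels was not run. The fit was tested on simulated data.

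The members were given. The related gene lists, marker lists and naming rule were chosen with earlier results of these data known, and the promoter motifs after several forms had been looked at. The rule gives array values for the 10 members of smallest p and the one with most probe sets, and names up to 3 genes per related list. Mitochondrial genes were matched by their RefSeq names. Replicate numbers do not pair the mice. Alternatives were other moderation, array weights, a replicate block, other scalings, filters on dim genes or probe sets, the median of probe sets, and each array left out.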

Additional observations from a re-analysis of the deposited data

How the results depend on the processing

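No member passed the adjusted threshold under any of the 15 alternatives, with a lowest adjusted p of 0.613 (Ndufa13 with array weights), and no member probe set did under those run on probe sets. The median log2 fold change of the members ran from −0.0205 to 0.0614 over other processing and from −0.050 to 0.0559 over arrays left out, and the difference of their array means from −0.0397 to 0.0323 and from −0.0746 to 0.0399. With probe sets at 9 or more it was 0.0153. At an unadjusted p under 0.05 there were 2 members with array weights (7.8% of all genes), 1 (Ndufb4) without MKO replicate 1, 2 (Ndufa13 and Ndufv2) without MKO replicate 3, and 6 to 20 member probe sets with an array left out or 4 without a variance trend, against 9. Over all genes, 1 gene (Rrad) passed with array weights, and 0 to 1 with an array left out (Rrad without WT replicate 3, 1 immunoglobulin segment without WT replicate 1). The Gna13 probe set 17257825 kept its direction, at −2.19 to −1.67 with an array left out.

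The signs of small differences did depend on processing, and 7 of 35 members (Ndufa9, Ndufab1, Ndufb2, Ndufb3, Ndufb4, Ndufs5 and Ndufv1) kept theirs throughout. Opposite signs were seen for Ndufa1 (0.028) and Ndufa10 (0.002) after quantile normalization; for Ndufa1 (0.0013) after median centring. The same held for Ndufa10 (0.074), Ndufa2 (0.22), Ndufa5 (−0.42), Ndufa8 (−0.043), Ndufb6 (−0.10), Ndufb8 (−0.29), Ndufb9 (−0.016), Ndufc1 (−0.26), Ndufs3 (−0.021) and Ndufs4 (−0.15) with the median of probe sets. It held too for Ndufa12 (−0.006), Ndufa13 (0.013), Ndufa2 (0.019), Ndufa3 (0.037), Ndufb5 (−0.045), Ndufb6 (−0.0017), Ndufb8 (−0.11), Ndufc1 (−0.011) and Ndufs4 (−0.015) with probe sets above the median level only, and for Ndufb7 (−0.0098), Ndufb8 (−0.061) and Ndufb9 (−0.0044) with array weights. The cause was not tested. The count of members on the higher side was 14 with the median of probe sets, which is a median of levels on each array. The median of the log2 fold changes of single probe sets had the sign of the gene mean for Ndufa2, Ndufa5, Ndufb6, Ndufb9, Ndufc1 and Ndufs3. For Ndufa10, Ndufa8, Ndufb8 and Ndufs4 it had the opposite sign. With an array left out, the log2 fold changes that crossed 0 had these ranges: Ndufa1 −0.15 to 0.088, Ndufa10 −0.082 to 0.0026, Ndufa11 −0.047 to 0.13, Ndufa12 −0.017 to 0.18, Ndufa3 −0.12 to 0.0073, Ndufa5 −0.025 to 0.18, Ndufa6 −0.11 to 0.017, Ndufa7 −0.40 to 0.042. For others they were Ndufb10 −0.18 to 0.042, Ndufb11 −0.37 to 0.19, Ndufb7 −0.014 to 0.088, Ndufb8 −0.24 to 0.15, Ndufb9 −0.011 to 0.042, Ndufc1 −0.05 to 0.16, Ndufc2 −0.31 to 0.10. The rest were Ndufs1 −0.030 to 0.17, Ndufs4 −0.079 to 0.083, Ndufs6 −0.36 to 0.0001, Ndufs7 −0.0088 to 0.13, Ndufs8 −0.026 to 0.11, Ndufv2 −0.27 to 0.027, Ndufv3 −0.006 to 0.16. With the replicate number as a block, 0 members and 0 genes passed and the median of the members stayed at 0.0161. The numbers only share a label: deviations of same-numbered mice correlated at −0.088, 0.091 and −0.236. The block changed no call. Precision is limited by 3 mice per group and by dim probe sets, whose standard errors were the larger.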
